A study of Mus musculus with 36 samples.

Results

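Cytochromes P450 of the Cyp2b and Cyp3a subfamilies were followed in 36 female mouse livers from 5 lines that carry neural tube defect mutations and from their controls. The 8 genes were Cyp2b9, Cyp2b10, Cyp2b13, Cyp3a11, Cyp3a13, Cyp3a16, Cyp3a25 and Cyp3a44. They were chosen by name: every probe set whose platform symbol, or its current synonym, was a member was kept, which gave 8 of 18193 genes with a symbol and 10 of 45037 probe sets other than array controls. Cyp2b10 had 3 probe sets and each other gene had 1. The suffix s_at, which marks probes shared by several transcripts, was carried by 2 of the Cyp2b10 probe sets, and the suffix x_at by 0 of the 10. The main pattern of signals lay between stocks of mice. Each Cyp3a gene was read by 1 probe set, whose match to the sequence of each stock was not tested. Cyp3a13 was 3.71-fold lower in the Cd wild type and 3.32-fold lower in CBA/CaJ than in C57BL/6J, and 4.52-fold higher in the ct colony than in CBA/CaJ. Cyp3a16 was 40.3-fold higher and Cyp3a44 6.41-fold higher in the Cd than in the Lp wild type. The Cyp3a44 call was lost in 6 of 17 alternative analyses, and the Cyp3a16 signals of the Lp wild type were near background. Among mutants set against their own controls, 1 of 10 member probe sets passed the test in Apob (0.796% of all tested) and 1 in Ct (4.52%). In the other 3 lines 0 did, where at most 0.0222% of all tested probe sets passed. The Apob call, of Cyp3a16, was lost in 10 of 17 alternative analyses.

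The labels sort the mutant lines by response to dietary FA, which is not used here, and gave 9 groups of 4 biological replicates, with 1 array per liver, from females aged 6 to 8 weeks that had fasted for 4 to 5 hours. B6 was wild type C57BL/6J, and it was the named control of both heterozygous Pax3Sp2H mice (Pax3) and heterozygous Apobtm1Unc mice (Apob), so both comparisons share its arrays. Cd-WT and Cd-Het were wild type and heterozygous mice of the Lrp6Cd line, and Lp-WT and Lp-Het were wild type and heterozygous mice of the Vangl2Lp line. Ct came from the curly tail line, a random-bred closed colony whose animals are all taken as ct/ct homozygotes, and its control was wild type CBA/CaJ (CBA), so the ct mutation and the stock cannot be told apart. The mutants of the other 4 lines were heterozygotes. In bulk liver, fewer cells of a type and less RNA per cell cannot be told apart.

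Cytochromes P450 are heme enzymes that oxidise drugs, steroids and fatty acids in the endoplasmic reticulum, with electrons passed to them by the reductase Por. In mouse liver Cyp2b10 is the classic target of the constitutive androstane receptor CAR (Nr1i3), which drugs of the phenobarbital type activate, and Cyp3a11 is the main target of the pregnane X receptor PXR (Nr1i2). Cyp2b9, Cyp2b13, Cyp3a16 and Cyp3a44 are known as female-predominant liver enzymes. They are kept so by the near-continuous growth hormone profile of females, which acts through STAT5b, Onecut1 and Cux2. Cyp3a13 is also expressed in the intestine, and Cyp3a25 is an enzyme of the adult liver.

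The genes lie in clusters of recent duplicates, and the sequence before the start site shows which members are near copies. In the order of the RefSeq annotation of GRCm38.p6, Cyp2b10, Cyp2b13 and Cyp2b9 were neighbours on chromosome 7. On chromosome 5, Cyp3a16 was followed by Cyp3a41b, Cyp3a41a, Cyp3a44, Cyp3a11 and Cyp3a25 with no other protein-coding gene between them, whereas Cyp3a13 stood 121 protein-coding genes away from the nearest Cyp3a gene. RefSeq promoter windows were found for 8 of 8 genes, and the 250 bases before each start site were used. Shown here are those of the near-copy pairs, which deviated together below, and of the receptor target beside each pair. They lie at chr7:26173159-26173408 (Cyp2b9, + strand), chr7:26061245-26061494 (Cyp2b13, + strand), chr7:25897408-25897657 (Cyp2b10, + strand), chr5:145469724-145469973 (Cyp3a16, - strand), chr5:145805875-145806124 (Cyp3a44, - strand) and chr5:145879855-145880104 (Cyp3a11, - strand). Capitals mark matches on either strand to the nuclear receptor hexamers AGGTCA and TGAACT, the Onecut1 core ATCAAT and the TATA box letters TATAAA. Matches are marked by their letters alone, wherever they lie in the window.
Cyp2b9: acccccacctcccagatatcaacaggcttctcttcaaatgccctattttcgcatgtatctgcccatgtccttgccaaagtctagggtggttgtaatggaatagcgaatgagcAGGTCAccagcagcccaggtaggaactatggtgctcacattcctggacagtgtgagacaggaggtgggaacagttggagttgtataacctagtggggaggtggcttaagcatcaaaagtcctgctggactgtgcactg
Cyp2b13: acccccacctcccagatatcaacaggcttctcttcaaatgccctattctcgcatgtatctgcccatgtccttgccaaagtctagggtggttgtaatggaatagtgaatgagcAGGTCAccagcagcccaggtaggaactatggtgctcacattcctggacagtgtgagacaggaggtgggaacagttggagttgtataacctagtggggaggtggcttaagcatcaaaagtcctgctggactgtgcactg
Cyp2b10: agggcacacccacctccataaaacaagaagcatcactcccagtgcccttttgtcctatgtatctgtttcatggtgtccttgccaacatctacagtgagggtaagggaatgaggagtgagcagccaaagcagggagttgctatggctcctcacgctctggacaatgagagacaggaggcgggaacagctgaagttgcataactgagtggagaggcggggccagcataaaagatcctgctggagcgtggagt
Cyp3a16: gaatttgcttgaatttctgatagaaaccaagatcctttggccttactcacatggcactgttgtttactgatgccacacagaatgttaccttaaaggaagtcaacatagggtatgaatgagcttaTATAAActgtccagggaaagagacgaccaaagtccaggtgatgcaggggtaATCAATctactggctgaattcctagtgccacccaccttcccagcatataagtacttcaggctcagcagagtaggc
Cyp3a44: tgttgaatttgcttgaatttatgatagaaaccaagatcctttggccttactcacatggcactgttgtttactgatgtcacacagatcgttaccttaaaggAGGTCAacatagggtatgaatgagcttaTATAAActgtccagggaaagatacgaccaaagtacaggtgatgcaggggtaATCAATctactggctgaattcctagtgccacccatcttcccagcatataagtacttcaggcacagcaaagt
Cyp3a11: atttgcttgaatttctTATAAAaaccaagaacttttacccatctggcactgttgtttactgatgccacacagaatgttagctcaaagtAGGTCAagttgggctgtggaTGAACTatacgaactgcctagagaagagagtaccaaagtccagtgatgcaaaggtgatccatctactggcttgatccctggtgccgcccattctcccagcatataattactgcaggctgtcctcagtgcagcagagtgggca

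The Cyp2b9 and Cyp2b13 windows were 99.2% identical in a global alignment, with 248 of 250 bases the same. Counted from 1 at the 5′ end of the window, with the Cyp2b9 base first, they differed by T48C and C104T. The Cyp3a16 and Cyp3a44 windows were 95.9% identical, while the other 26 pairs of the 8 genes ranged from 46.2% to 77.5%, the last being Cyp3a11 with Cyp3a16. ATCAAT lay in the windows of Cyp3a16 and Cyp3a44, 70 to 75 and 66 to 71 bases before the start, and in 6.72% of all 32851 windows of that length. AGGTCA lay in 5 of the 8 members' windows (Cyp2b9, Cyp2b13, Cyp3a11, Cyp3a25 and Cyp3a44) against 14.0% of all windows, and TGAACT in that of Cyp3a11 against 11.8%. TATAAA was found 229 to 234 bases before the start in Cyp3a11, 121 to 126 in Cyp3a16 and 117 to 122 in Cyp3a44. It was in 12.4% of all windows. The C/EBP core TTNNNCAA, not in capitals above, was found in 5 members (Cyp2b9, Cyp2b10, Cyp2b13, Cyp3a13 and Cyp3a25) and in 33.3% of all windows. The STAT5 core TTCNNNGAA (7.02% of windows) and the HNF1 core (0.131%) were in 0 of the 8. All motifs were searched on both strands, and near copies share their matches.

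Signals were MAS5 values that the arrays reported on a linear scale, each array having a trimmed mean of 500. On 34 arrays the 3′ to 5′ signal ratio of GAPDH was between 0.729 and 0.956, while CBA replicate 4 had a ratio of 52.5 and Ct replicate 3 one of 1.72, and that Ct array also read 32479.8 for the neutrophil gene S100a8 against 20.4 to 552 on the other 35. These arrays stood apart from the rest, and called member differences that rest on them are given with and without both. Other results of the CBA and Ct groups, such as those of listed genes, are in part given with all arrays only. Cd-WT replicate 1 read 25.4 for Xist, the transcript of the inactive X chromosome, against at least 1014 on the other 35 arrays, while the Y-linked Eif2s3y, Kdm5d and Uty did not exceed 43.5, 106 and 145 on any array. The hepatocyte marker Alb read between 34620.0 and 92454. Of the genes that name the lines, Apob was lower in Apob livers (7849 ± 4604 against 23830.0 ± 4452, SD, n = 4, log2 difference -1.82 ± 0.42, adjusted p = 0.0297), and Pax3, Lrp6 and Vangl2 did not pass the test in their lines.

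**Figure D1:**
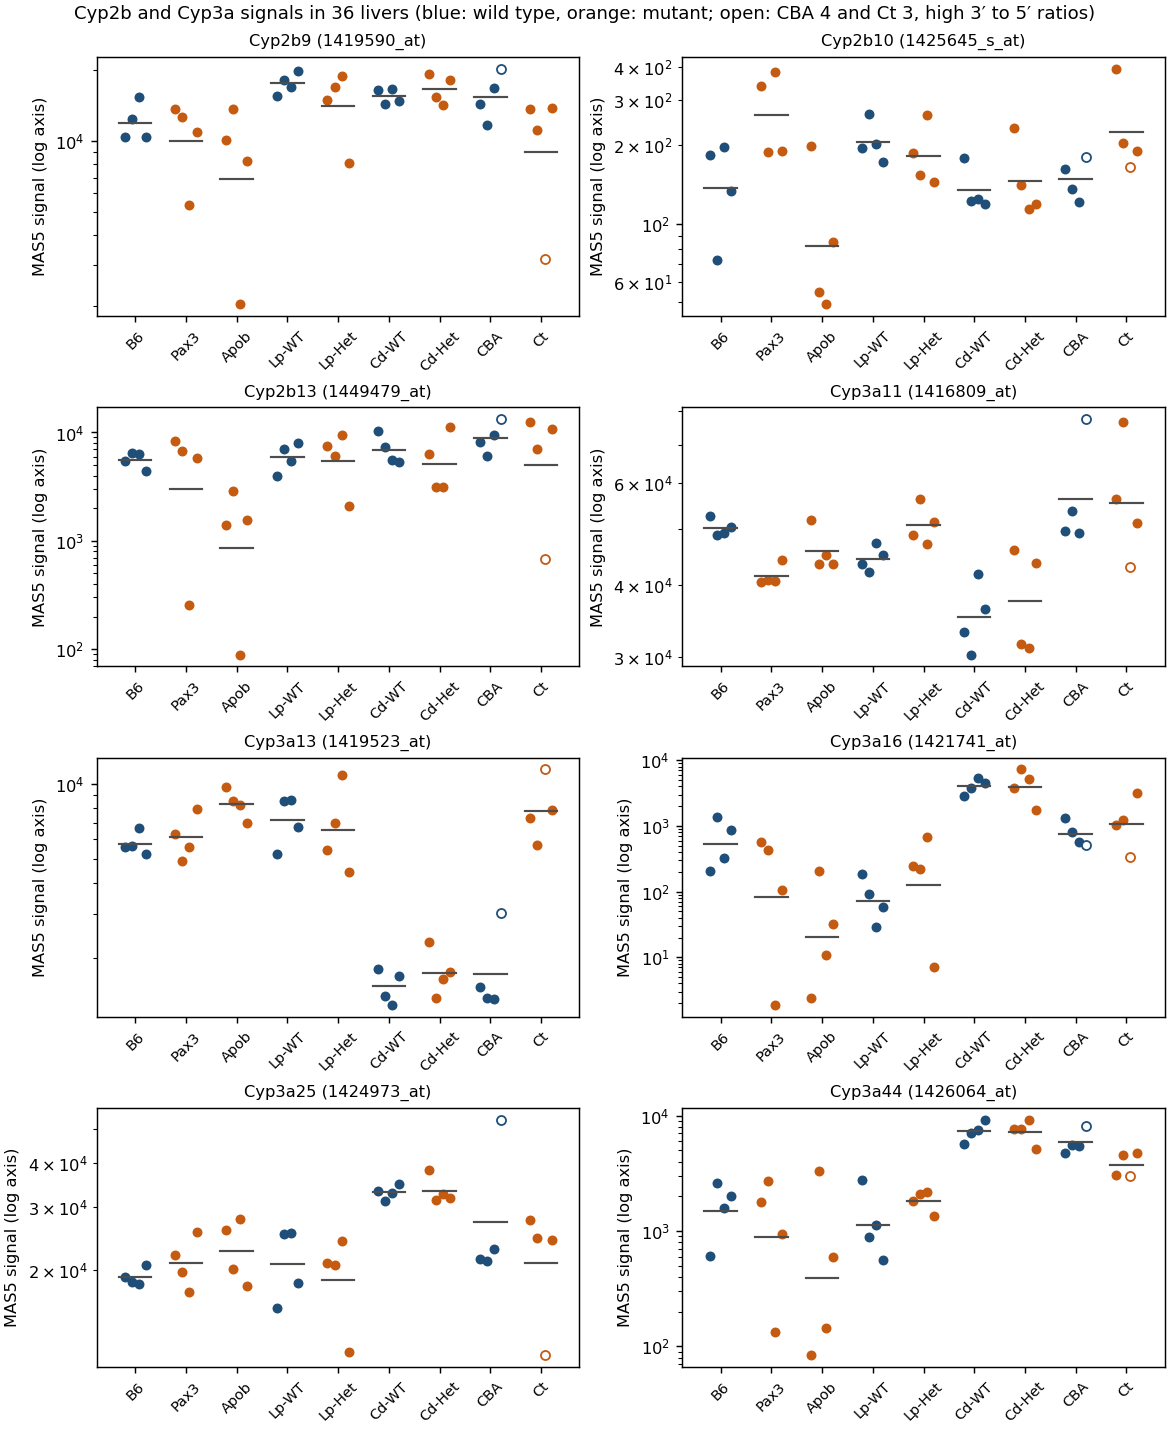
MAS5 signal (log axis) of each of the 8 genes on each of the 36 arrays, with 9 groups of 4 on the horizontal axis, wild type groups in blue and mutants in orange. Horizontal lines are geometric means and open points are CBA replicate 4 and Ct replicate 3; the scales differ between panels, and Cyp2b10 is shown by 1425645_s_at. Cyp3a13 is low in the Cd-WT, Cd-Het and CBA groups, and single low arrays stand out for Cyp2b13.

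Differences were tested with limma on log2(signal + 23.1), with 1 mean per group fitted over all 36 arrays, and adjusted by the Benjamini-Hochberg method over 27022 probe sets. All 10 member probe sets were among these. A difference is called where the adjusted p was below 0.05, its error is the standard error of the fit, and a fold is on that scale, which understates changes of low signals. The p-values measure the spread between the livers sampled. Of the 110 differences of 10 probe sets in 11 comparisons, 11 were called, all in Cyp3a genes and most of them of Cyp3a13 and Cyp3a16. Of all tested probe sets, 0% to 6.29% were called, by comparison. Several comparisons reuse the same groups, so these calls are not independent.

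Cyp3a13 had the clearest differences of the 8 genes. The B6 livers read 5570.2, 5632, 6648 and 5233, and the Lp-WT livers 5209, 8564, 8644 and 6734. The Cd-WT livers read 1798, 1404, 1289 and 1688, and the CBA livers 1527, 1369, 1367 and 3016. All Cd-WT and CBA values lay below all B6 and Lp-WT values, and the highest of them was CBA replicate 4, the array with the poorest 3′ to 5′ ratio. Cd-WT was lower than B6 by 3.71-fold (log2 difference -1.89 ± 0.25, adjusted p = 2.79e-06), and CBA was lower than B6 by 3.32-fold (-1.73 ± 0.25, adjusted p = 1.08e-05, with 9.39e-08 without both doubtful arrays). Lp-WT was higher than CBA by 2.04 ± 0.25 on the log2 scale (adjusted p = 6.86e-07, and 2.31 ± 0.22 without both arrays), and Cd-WT was lower than Lp-WT by 4.61-fold (-2.20 ± 0.25, adjusted p = 1.22e-07). The remaining pairs did not pass the test: Lp-WT minus B6 was 0.31 ± 0.25 (95% interval -0.19 to 0.82) and Cd-WT minus CBA was -0.16 ± 0.25 (-0.67 to 0.35).

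The same gene separated Ct from its control. The Ct livers read 7322, 5705, 11459.7 and 7843, so that every Ct value lay above every CBA value. The mean was 8082 ± 2429 against 1819.9 ± 801 (SD, n = 4), and the log2 difference was 2.18 ± 0.25 (4.52-fold, adjusted p = 2.81e-07). Without both doubtful arrays it was 2.26 ± 0.24 (adjusted p = 7e-08), with 6956 ± 1115 in 3 Ct livers against 1421 ± 91.7 in 3 CBA livers. It was the single called member of 10 in this comparison, where 4.52% of all tested probe sets were called, and 1.68% without both arrays. Kupffer cell markers also differed between these groups: 4 of 7 were called higher in Ct, with a median of 1.29, and 0 of 7 without both arrays. Their part in the Cyp3a13 result was not tested.

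In the other lines no difference of Cyp3a13 was called. Cd-Het livers read 2321, 1369, 1634 and 1743, all below every B6 and Lp-WT value like those of Cd-WT (Cd-Het minus Cd-WT 0.18 ± 0.25, 95% interval -0.33 to 0.68). Lp-Het minus Lp-WT was -0.13 ± 0.25 (-0.63 to 0.38) and Pax3 minus B6 was 0.09 ± 0.25 (-0.42 to 0.59). The Apob livers read 9724, 8544, 8204 and 6971, all above the 4 B6 values, but the difference of 0.53 ± 0.25 did not pass the test (adjusted p = 0.388). The 5 differences of mutant from control were unequal for Cyp3a13 in the limma F test (adjusted p = 0.000371, and 4.96e-05 without both doubtful arrays). In that test 2 of the 10 member probe sets were called, this one and 1 of Cyp2b10, against 2.29% of all tested. From lowest to highest group mean, the order was Cd-WT, Cd-Het, CBA, B6, Pax3, Lp-Het, Lp-WT, Ct and Apob; of the neighbours in it that were compared, CBA and B6 differed.

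**Figure D2:**
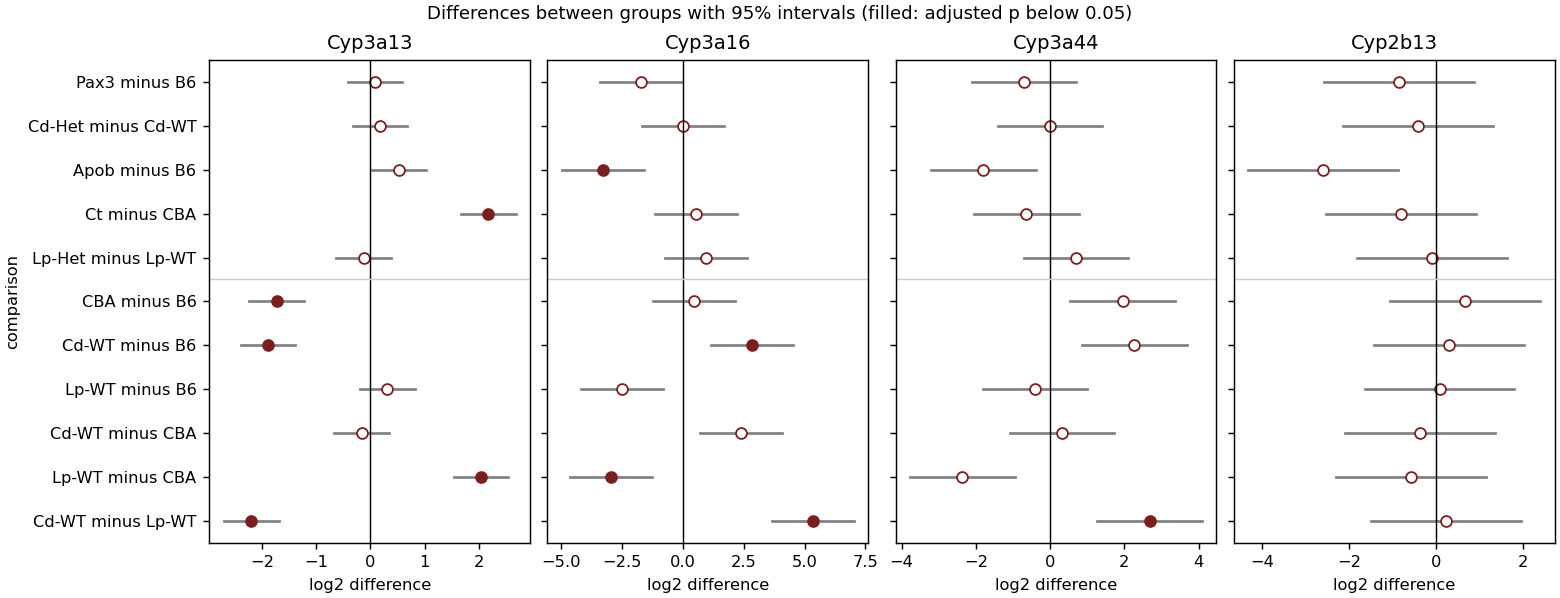
Log2 differences (points) with 95% intervals (lines) for Cyp3a13, Cyp3a16, Cyp3a44 and Cyp2b13 in 11 comparisons, 5 of a mutant with its control above the grey line and 6 between wild type groups below it. Filled points have an adjusted p below 0.05; the horizontal scales differ. Cyp3a13 has 5 filled points, Cyp3a16 has 4, Cyp3a44 has 1 and Cyp2b13 has 0.

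Cyp3a16, a female-predominant enzyme, varied most among stocks. The Cd-WT livers read 2844, 3789.5, 5329.5 and 4514, the B6 livers 208, 1388, 326 and 864, and the CBA livers 1309, 807, 578 and 509.8. The Lp-WT livers read 188, 90.5, 28.6 and 58.4. All Cd-WT values lay above those of the other 3 groups and all Lp-WT values below them, while B6 and CBA overlapped. Cd-WT was 40.3-fold higher than Lp-WT (log2 difference 5.33 ± 0.83, adjusted p = 5.1e-05). It was 7.16-fold higher than B6 (2.84 ± 0.83, adjusted p = 0.045), a call lost when any of Cd-WT replicates 1 to 4 or B6 replicates 1, 3 or 4 was left out (log2 2.41 to 3.06, adjusted p 0.0544 to 0.172), with an offset of 8 (0.116) and with no filter (0.0628). Lp-WT was lower than CBA by 7.69-fold (-2.94 ± 0.83, adjusted p = 0.042), a call lost without CBA replicate 1, 2 or 4 or Lp-WT replicate 2, 3 or 4 (adjusted p 0.0602 to 0.138), with an offset of 8 (0.0739) or with no filter (0.0581), but not when CBA replicate 4 and Ct replicate 3 were left out together (-3.12 ± 0.88, adjusted p = 0.0447). Lp-WT minus B6 was -2.49 ± 0.83 (adjusted p = 0.124) and Cd-WT minus CBA was 2.39 ± 0.83 (adjusted p = 0.0936).

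In Apob livers Cyp3a16 read 2.43, 205, 11.01 and 32.7. All lay below the lowest B6 value, 208, though Apob replicate 2 came close to it. The gene was lower than in B6 by 9.77-fold (log2 difference -3.29 ± 0.83, adjusted p = 0.0484), and it was the single member called in this line, 1 of 10 against 0.796% of all tested probe sets. The call was lost when B6 replicate 2, 3 or 4 or Apob replicate 1, 3 or 4 was left out (-3.52 to -2.85, adjusted p 0.0677 to 0.185). It was also lost with an offset of 8 (0.0548), an offset of 64 (0.0506), no filter (0.0648) or 1 probe set per gene (0.0596), so that 10 of 17 alternatives ended it. With both doubtful arrays of other groups left out, the same difference had an adjusted p of 0.0214.

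The remaining lines had no called difference of Cyp3a16. Pax3 livers read 561, 426, 1.88 and 105, with replicate 3 near background (difference -1.73 ± 0.83, adjusted p = 0.999). Cd-Het livers overlapped Cd-WT, at 3748, 7262, 5203 and 1770.0 (-0.01 ± 0.83, 95% interval -1.69 to 1.67). Lp-Het livers read 247, 225, 679 and 7.13 (0.95 ± 0.83), and Ct livers 1034, 1252, 338 and 3177 (0.53 ± 0.83). The 95% interval for Lp-Het minus Lp-WT was -0.73 to 2.63 and that for Ct minus CBA -1.15 to 2.22, wide enough to hold several-fold differences.

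Cyp3a44, the near copy of Cyp3a16 before the start site, followed a related order. The Cd-WT livers read 5729, 7129, 7569 and 9185 and the CBA livers 4728, 5597, 5504 and 8151. The B6 livers read 606, 2614, 1568 and 2015, and the Lp-WT livers 2748, 892, 1135 and 558. Every Cd-WT and CBA value lay above every B6 and Lp-WT value, whereas Cd-WT and CBA overlapped. Cd-WT was 6.41-fold higher than Lp-WT (2.68 ± 0.69, adjusted p = 0.025), a call lost without Cd-WT replicate 2, 3 or 4 or Lp-WT replicate 2, 3 or 4 (2.35 to 2.69, adjusted p 0.0612 to 0.108). The other differences did not pass the test: Cd-WT minus B6 was 2.27 ± 0.69 (adjusted p = 0.0596, and 0.0451 without both doubtful arrays), CBA minus B6 was 1.95 ± 0.69 (adjusted p = 0.0878) and Lp-WT minus CBA was -2.37 ± 0.69 (adjusted p = 0.051). Cd-WT minus CBA was 0.31 ± 0.69 (adjusted p = 0.848).

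Mutants of the 5 lines had no called difference of Cyp3a44. The Apob livers spread from 83.8 to 3282, with 83.8, 3282, 143 and 600.3 in replicate order (-1.80 ± 0.69, adjusted p = 0.255). Replicate 2 lay above every B6 liver and the other 3 lay below every B6 liver. Pax3 livers read 1794, 2705, 134 and 939 (-0.71 ± 0.69), the lowest again being replicate 3. In Ct livers the range was 2979 to 4754 (-0.64 ± 0.69), in Cd-Het 5143 to 9208 (-0.01 ± 0.69) and in Lp-Het 1356 to 2174 (0.70 ± 0.69).

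Cyp3a11, the PXR target, differed little from liver to liver. The Cd-WT livers read 33168, 30261, 41807 and 36244, the Lp-WT livers 43462, 42061, 47254 and 45091, and the B6 livers 52742, 48742, 49099 and 50433. The CBA livers read 49667, 53699, 49097 and 77524. These groups stepped up in that order without overlap from Cd-WT to Lp-WT and from Lp-WT to B6, while B6 and CBA overlapped. Cd-WT was lower than CBA by 1.61-fold (-0.68 ± 0.16, adjusted p = 0.00711, and -0.53 ± 0.14 with adjusted p = 0.0196 without both doubtful arrays). This call was lost after median centring of the arrays (adjusted p = 0.0646) and when the Cd-WT and CBA arrays were fitted alone (0.134). Cd-WT minus B6 was -0.52 ± 0.16, with an adjusted p of 0.06 that fell to 0.01 without both arrays. Pax3 livers, at 40505, 40705, 40542 and 44202, lay below all B6 livers (-0.28 ± 0.16, adjusted p = 0.999). The spread within groups was 0.21 (SD, log2), lower than that of all but 4.03% of tested probe sets. The 95% intervals of the 5 mutant differences lay between -0.60 and 0.51.

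Cyp3a25, an enzyme of the adult liver, was highest in the Cd stock. The Cd-WT livers read 33284, 31199, 32880.0 and 34892 and Cd-Het livers 38229.7, 31386, 32643 and 31759. The B6 livers read 19124, 18513, 18245 and 20674, Lp-WT livers ranged from 15573 to 25323, and CBA livers read 21474, 21146, 22844 and 52993. Every Cd-WT value lay above every B6 and Lp-WT value, and above the CBA values other than replicate 4. With all arrays, Cd-WT minus B6 was 0.79 ± 0.25 (adjusted p = 0.077) and Cd-WT minus Lp-WT was 0.68 ± 0.25 (adjusted p = 0.191), neither of which passed the test. Without both doubtful arrays, which held the highest and the lowest value of this gene, the same differences had adjusted p = 0.00301 and 0.0149. No mutant differed from its control by a called amount, and the differences ranged from -0.39 ± 0.25 in Ct (0.22 ± 0.20 without both arrays) to 0.24 ± 0.25 in Apob.

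For Cyp2b9 and Cyp2b13, the female-predominant Cyp2b enzymes, no difference was called in any of the 11 comparisons. Among the 16 wild type livers Cyp2b9 ranged from 10361 to 20147 and Cyp2b13 from 3950 to 13271. In the F test over the 4 wild type groups the adjusted p was 0.74 for Cyp2b9 and 0.921 for Cyp2b13. Lp-WT livers lay above all B6 livers for Cyp2b9 (0.55 ± 0.40, adjusted p = 0.638). Single livers of the mutant groups stood out for these genes, though Pax3 replicate 3 was also the lowest of its group for Cyp3a16 and Cyp3a44. Cyp2b13 read 8262, 6753, 258 and 5861 in Pax3 livers, against 5452, 6458, 6291 and 4374 in B6. It read 1414, 2876, 89.1 and 1563 in Apob livers and 12477, 7066, 684 and 10842 in Ct livers. Replicate 3 was the lowest of its group in all 3 of these lines, and the Ct one is the array with doubtful RNA. All Apob values lay below all B6 values, but the difference of -2.59 ± 0.85 (95% interval -4.32 to -0.87) did not pass the test (adjusted p = 0.152, and 0.056 without both doubtful arrays). Its spread within groups, 1.33 (SD, log2), exceeded that of 99.9% of tested probe sets, whose median was 0.39.

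Cyp2b9 was lowest in the same livers. It read 13619, 12614, 5367 and 10948 in Pax3, 10089, 13581, 2039 and 8203 in Apob and 13619, 11081, 3174 and 13724 in Ct. The low replicate 3 of each group was less marked than for Cyp2b13. Apob minus B6 was -0.78 ± 0.40 (adjusted p = 0.438), and Ct minus CBA moved from -0.77 ± 0.40 to -0.14 ± 0.39 when both doubtful arrays were left out. In the remaining lines Cd-Het minus Cd-WT was 0.10 ± 0.40 for Cyp2b9 and -0.41 ± 0.85 for Cyp2b13. Lp-Het minus Lp-WT was -0.32 ± 0.40 and -0.10 ± 0.85 in the same order.

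Cyp2b10, the CAR target, had low signals, with group means from 74.7 to 275 over its s_at probe sets, where a signal of about 61.7 was the lower limit for testing. On 1425645_s_at the B6 livers read 184, 72.4, 196 and 134, the Pax3 livers 339.8, 188, 383 and 191 and the Apob livers 199, 54.5, 49.0 and 85.3. Both mutants overlapped B6, although 2 of 4 Pax3 livers lay above every B6 liver and 2 of 4 Apob livers below every B6 liver. Pax3 minus B6 was 0.82 ± 0.31 (adjusted p = 0.973) and Apob minus B6 was -0.59 ± 0.31 (adjusted p = 0.458). The 5 line effects were unequal on this probe set at an adjusted p of 0.0495 (0.031 without both doubtful arrays), just under the threshold, and on the other s_at probe set at 0.0665. On 1451787_at, the probe set with no suffix, the same F test gave 0.589, and Apob minus B6 turned to 0.22 ± 0.43. The probe sets thus disagreed in sign for Apob. The called F test was lost in 31 of 44 alternatives, with adjusted p from 0.00735 to 0.168. Among wild type groups no Cyp2b10 difference was called.

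Counted by comparison, the members stood against their background as follows. In Pax3 against B6, 0 of 10 were called by limma where 0% of all tested probe sets were, and 3 had an unadjusted p under 0.05. The groups did not overlap for 1 of 10, Cyp3a11, where 5.21% of all tested probe sets did not overlap. For Cd-Het against Cd-WT the counts were 0 of 10 called (0.0037% of all), 0 with an unadjusted p under 0.05 and 0 not overlapping (3.02% of all). For Lp-Het against Lp-WT they were 0 called (0.0222% of all), 0 with an unadjusted p under 0.05 and 0 not overlapping (5.1% of all). In Apob against B6, groups did not overlap for 3 members (Cyp2b13, Cyp3a13 and Cyp3a16) against 9.86% of all, and the median difference of the 10 probe sets was -0.58 against 0.03 for all tested. In Ct against CBA they did not overlap for 1 (Cyp3a13) against 6.19% of all.

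Between wild type groups, 1 of 10 was called for CBA against B6 (6.29% of all tested) and 2 for Cd-WT against B6 (3.82%). Their groups did not overlap for 3 members (Cyp3a13, Cyp3a25 and Cyp3a44) in the first, against 11.4% of all, and for 5 (Cyp3a11, Cyp3a13, Cyp3a16, Cyp3a25 and Cyp3a44) in the second, against 16.6%. The called counts were 0 for Lp-WT against B6 (2.04%, with 2 unadjusted p under 0.05) and 1 for Cd-WT against CBA (4.64%). They were 2 for Lp-WT against CBA (3.21%) and 3 for Cd-WT against Lp-WT (2.44%). Not overlapping in these 4 comparisons, in the same order, were 3, 2, 4 and 6 members, against 11.5%, 11.2%, 7.65% and 13.4% of all tested probe sets. In the F test over the 4 groups 4 members were called, Cyp3a11, Cyp3a13, Cyp3a16 and Cyp3a44, against 9.65% of all tested probe sets. Their adjusted p-values were 0.0167, 4.84e-09, 0.000259 and 0.0101. That of Cyp3a11 lost its call after median centring (0.12), without a filter (0.0686) and without Cd-WT replicate 1 (0.0565) or 2 (0.0759). Cyp3a25 had 0.0941, and 0.0058 without both doubtful arrays, where 5 members were called against 12.7% of all. Without both arrays the counts for Cd-WT against B6 and Cd-WT against Lp-WT were 5 and 4, where 6.93% and 4.92% of all tested probe sets were called. Leaving out Cd-WT replicate 1, the array with low Xist, kept each call that rests on the Cd-WT group except those of Cyp3a16 against B6 (3.01, adjusted p = 0.066) and of Cyp3a11 in the F test. CBA livers also had lower signals of Kupffer cell markers, with 4 of 7 called lower than in B6 (median -1.45, and 4 called without both arrays), and their part in the CBA results was not tested. Lyve1, a marker of sinusoidal endothelium, was called lower in Cd-WT than in each other wild type group (1 of 5 such markers, -1.64 to -1.35). Most of the 5 went the other way: 4 were higher in Cd-WT than in B6 (median 0.13), 4 than in CBA (0.35) and 3 than in Lp-WT (0.02). The part of Lyve1 in the Cd-WT results was not tested. Hepatocyte, cholangiocyte, T and B cell, neutrophil and enterocyte markers had 0 calls in the 11 comparisons, and stellate cell markers 3.

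Livers of a group deviated together for some of the genes. Deviations from the group mean were compared over the 34 arrays other than CBA replicate 4 and Ct replicate 3, for 28 pairs, with 100000 permutations within groups. Cyp2b9 and Cyp2b13 had Pearson's r = 0.90 and Spearman's rho = 0.86 (permutation p = 1e-05, the smallest these permutations can give, and 2e-05; Benjamini-Hochberg 0.00014 and 0.00028). Without Pax3 replicate 3 and Apob replicate 3, the livers farthest out, r was 0.85. Cyp3a16 and Cyp3a44 had r = 0.77 and rho = 0.80 (permutation p = 1e-05 and 2e-05, adjusted 0.00014 and 0.00028), and r = 0.77 without Pax3 replicate 3 and Lp-Het replicate 4. Cyp3a13 and Cyp3a25 had r = 0.73 and rho = 0.66 (permutation p = 0.00041 and 0.00051, adjusted 0.00383 and 0.00476), and r = 0.62 without Lp-Het replicates 3 and 4. The other 25 pairs did not pass the adjusted threshold. Points of a pair share the array and its scaling, and the near copies may share probe targets, which was not tested.

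**Figure D3:**
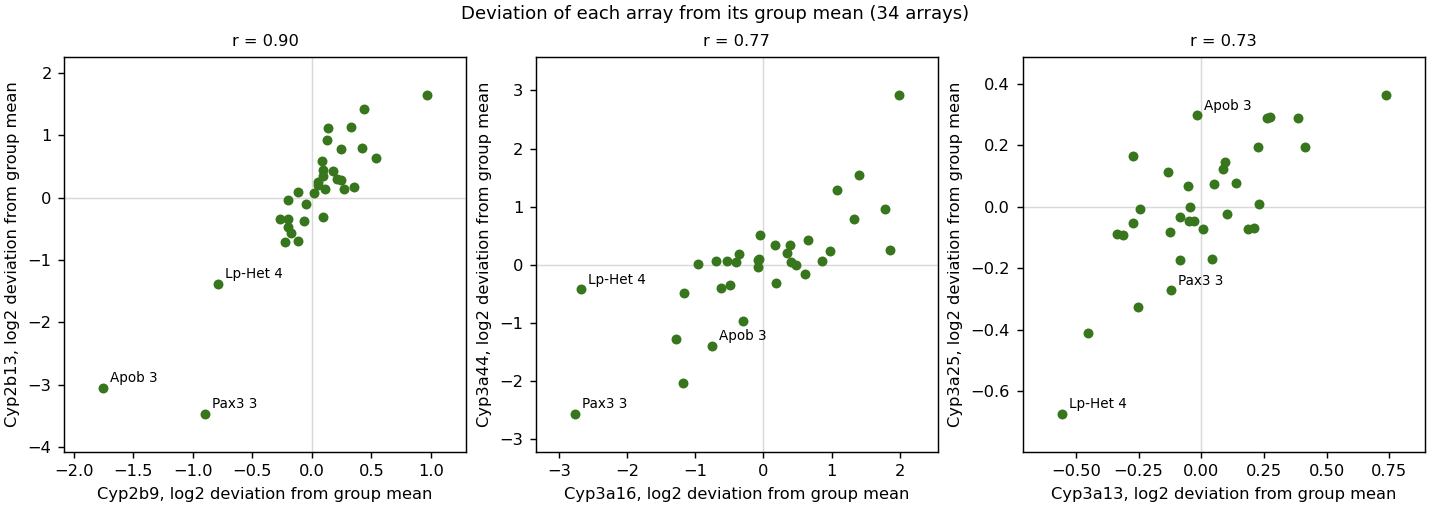
Log2 deviation of each of 34 arrays (points) from its group mean for 3 pairs of genes, 1 pair per panel, with Pax3 replicate 3, Apob replicate 3 and Lp-Het replicate 4 named. Cyp2b9 and Cyp2b13 fall together on these 3 livers (r = 0.90), while Apob replicate 3 is above its group mean for Cyp3a25.

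Identity before the start site was set beside this shared deviation. The pairs at 99.2% and 95.9% identity had r of 0.90 and 0.77. Cyp3a11 with Cyp3a16 and with Cyp3a44, at 77.5% and 75.6%, had -0.30 and -0.17, and Cyp2b10 with Cyp2b9 and with Cyp2b13, both at 72.7%, had 0.22 and 0.07. Cyp3a13 and Cyp3a25, at 52.9%, had 0.73. The 28 pairs share 8 genes and are not independent, so no test was made.

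**Figure D4:**
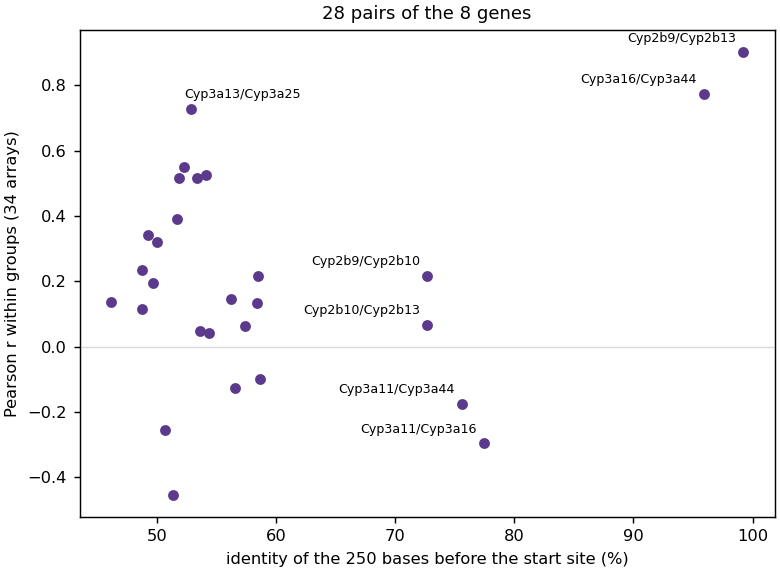
Pearson r of deviations within groups (34 arrays) against percent identity of the 250 bases before the start site, for the 28 pairs of 8 genes (points). Both near-copy pairs lie at the upper right, and Cyp3a13 with Cyp3a25 has r = 0.73 at 52.9% identity.

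Other female-predominant genes were set beside Cyp2b13. Of a list of 23 such genes, 15 were tested, and their mean on each array was set against the B6 mean on the log2 scale. It was -0.11 to 0.09 in B6 livers, -0.90 in Pax3 replicate 3 against -0.09 to -0.07 in the other Pax3 livers, and -2.33 in Apob replicate 3 against -1.46 to -0.34 in the other Apob livers. Ct replicate 3 stood at -1.32 and the other Ct livers at 0.20 to 0.51. Apob livers as a group were lower than B6 for 3 of the 15 (0 higher, median -0.91 against 0.03 for all tested, and 5 called without both doubtful arrays). These were Sult2a2 (-4.29, adjusted p = 0.00201) and Sult3a1 (-4.66, adjusted p = 0.036), which are sulfotransferases, and Slc22a27 (-1.90, adjusted p = 0.0112), an organic anion transporter. The 3 livers lowest for Cyp2b13, replicate 3 of Apob, Pax3 and Ct, were thus the lowest of their groups for the list. In other groups the list and Cyp2b13 did not go together: Lp-WT livers stood at -0.80 to -0.19 with Cyp2b13 at 3950 to 7943, which overlaps B6. CBA livers stood at -0.37 to -0.13, with the highest mean of Cyp2b13 (9217) when all arrays were kept. Without CBA replicate 4 and Ct replicate 3 the CBA mean was 7866, and that of Ct was the highest (10128). Cd-Het livers stood at 0.21 to 0.59, those with a low Cyp2b13 of 3157 and 3164 at 0.36 and 0.59, and Cd-WT livers at 0.32 to 0.37. The list holds Cyp2c39, whose large differences of Cd-WT and CBA from B6, given below, weigh on these means. The median of the 15 genes was 0.29 for Cd-WT minus B6, with 9 positive, and -0.003 for CBA minus B6, with 7 positive.

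Of 20 male-biased genes 15 were tested. Their mean was 0.36 to 1.33 in Apob livers, with replicate 3 the highest, and Cyp7b1, an oxysterol hydroxylase, was called higher than in B6 (1.09, adjusted p = 0.0492), with 2 genes called without both doubtful arrays. In Pax3 replicate 3 the male-biased mean was -1.17, so that on this liver both lists were below B6. That liver was also high for stellate cell markers (1.17 against -0.30 to 0.03 in the other Pax3 livers) and low for pericentral genes (-1.001 against 0.08 to 0.14), and the part of these in its Cyp2b13 value was not tested. In Cd-WT the male-biased mean was -0.91 to -0.48. Slco1a1, a transporter of organic anions, was called lower there than in B6 (-3.68, adjusted p = 0.00156), as was Cyp2f2 (-0.77, adjusted p = 0.0164), 2 genes in all and 4 without both doubtful arrays. In CBA the mean was 0.30 to 0.90, with Cyp2d9 (2.01, adjusted p = 0.00631), Cyp7b1 (1.22, adjusted p = 0.00476) and Ugt2b1 (1.05, adjusted p = 0.0243) called higher than in B6.

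**Figure D5:**
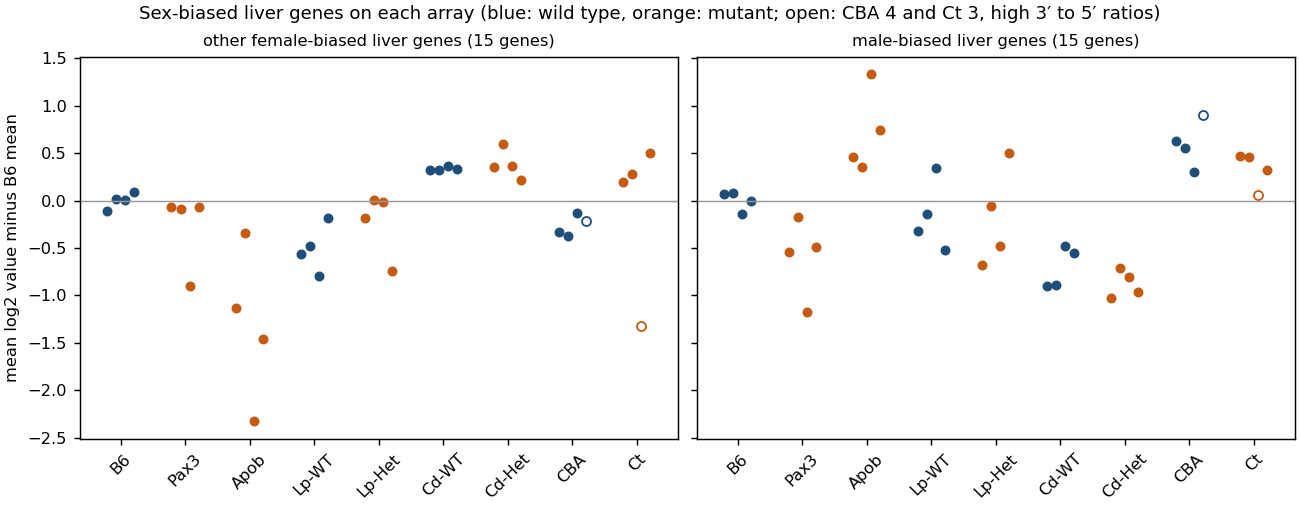
Mean log2 value of 15 other female-biased genes (left) and 15 male-biased genes (right) on each array (points), minus the B6 mean, for 9 groups of 4 with wild type in blue and mutants in orange; open points are CBA replicate 4 and Ct replicate 3. The Apob livers lie at -2.33 to -0.34 on the left and at 0.36 to 1.33 on the right.

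Genes that regulate the members or share their receptors were examined from lists. Of 14 receptors and partners 13 were tested, and the gene called most often was Alas1, the rate-limiting enzyme of heme synthesis, which supplies the P450 cofactor. Alas1 was lower than in B6 in Apob (-1.58, adjusted p = 0.0492), Cd-WT (-1.94, adjusted p = 0.00227) and Lp-WT (-2.96, adjusted p = 1.13e-05). It was higher in Lp-Het than in Lp-WT (2.52, adjusted p = 0.0076). PXR (Nr1i2) was lower in CBA than in B6 (-0.95, adjusted p = 0.00844), where the Cyp3a11 difference did not pass the test (0.17 ± 0.16). CAR (Nr1i3) was not called in any of the 11 comparisons, with -1.09 for Cd-WT minus B6 (adjusted p = 0.102, and 0.0135 without both doubtful arrays). Of 28 other CAR and PXR targets 24 were tested, and 0 were called in Pax3, Cd-Het and Lp-Het against their controls. In Apob 1 was lower, the transporter Slco1a4 (-1.64, adjusted p = 0.0365). Cd-WT had 2 lower than B6, Cyp2c37 (-5.67, adjusted p = 1.07e-12) and the export pump Abcc2 (-0.99, adjusted p = 0.0343), and 5 lower than CBA. Without both doubtful arrays the called counts of this list were 3 in Apob against B6, 5 in Cd-WT against B6 and 3 in Cd-WT against CBA.

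The growth hormone list, 15 genes of which 14 were tested, held 2 calls in 11 comparisons. Onecut1 was lower in Lp-WT than in CBA (-1.83, adjusted p = 0.032, and 0.0858 without both doubtful arrays), and Trim24 was higher in Cd-WT than in Lp-WT (1.01, adjusted p = 0.0433). In Apob against B6, where Cyp3a16 was lower, 0 of the 14 were called and 6 were positive, with a median of -0.05 against 0.03 for all tested. Of 14 other cytochromes, all tested, 4 differences were called in 11 comparisons, 3 of them lower values of Cyp7a1, which starts bile acid synthesis from cholesterol. Pericentral genes had 6 calls over 10 genes and periportal genes 1 over 7. The lists share genes: Cyp2f2 is on the male-biased, periportal and other cytochrome lists, so its call in Cd-WT against B6 is counted in each. Without both doubtful arrays Cd-WT against B6 had 4 pericentral calls in place of 2, and the call of Cyp7a1 in Ct against CBA was lost (adjusted p = 0.553).

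Over the 34 arrays with group differences left in, the genes whose log2 values were most like a member's were given by Pearson's r. For Cyp3a16 they were Cyp2c39 (0.85), Pik3ap1 (0.80) and Slc38a6 (0.78), and for Cyp3a44 Cyp2c39 (0.80), Slc38a6 (0.78) and Hao2 (0.77). Cyp2c39, another female-biased cytochrome, was higher than in B6 in CBA (4.22, adjusted p = 2.24e-11) and in Cd-WT (5.02, adjusted p = 2.41e-13). Cyp2b9 was most like Slc22a26 (0.80), Hao2 (0.79) and Cux2 (0.75), and Cyp2b13 most like Slc22a26 (0.83), Hao2 (0.75) and Tecr (0.73). Cyp3a13 was most like Prxl2c (0.95), Plekhb2 (0.94) and Ctsl (0.93), and Cyp3a25 most like Tmem185a (0.82), Rnf128 (0.80) and Leng1 (0.79). The closest to Cyp3a11 were Ctsh (0.86), Dctn3 (0.83) and S100a1 (0.83), and to Cyp2b10 Cuzd1 (0.70), Nudt4 (0.63) and Mycl (0.61).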

How the data were processed

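Livers of 36 mice were measured on 1 array each, and MAS5 signal intensities on a linear scale were deposited by the authors, per the labels (MAS5 version not given in the sources used here). Every array has a trimmed mean of 500 (2% removed at each end), so levels are relative within an array. Of 45037 probe sets other than controls, 34945 have 1 gene symbol in the platform annotation, 932 several and 9160 none; 34741 symbols were found in RefSeq.

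Signals plus 23.1 (their 20th percentile) were log2 transformed, and probe sets with a mean above the 40th percentile were kept (27022). limma 3.58.1 in R 4.3.3 fitted 1 mean per group with a trended prior, with Benjamini-Hochberg adjustment at 0.05. Groups came from the labels, and precision is limited by having 4 arrays in each. On simulated data, 45 of 100 changes of 2-fold and 85 of 100 of 4-fold were called for Apob minus B6 among 27022 probe sets, with 6 false calls. These rates need not hold for Cyp2b13, Cyp3a16 and Cyp3a44. Their spread within groups (SD 1.33, 1.29 and 1.08, log2) was far above the median of 0.39 for tested probe sets.

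The main fit did not pair arrays by replicate number. Arrays of the same number in a mutant and its control had correlations of deviations of -0.199 to 0.319. Arrays of different numbers were not compared, so these values cannot show whether the numbers pair the arrays. Alternatives were quantile normalization, median centring, offsets of 8 and 64, no filter, 1 probe set per gene, a replicate block, the compared groups alone, and leaving out arrays.

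Named were all member probe sets, at most 4 called genes per list and comparison, and the 3 genes most like each member by Pearson's r. The members and lists were chosen with earlier results of these data known. Promoters are RefSeq windows of GRCm38.p6, aligned with Biopython 1.88 (match 1, mismatch -1, gap opening -2, gap extension -0.5). Values of a probe set that names both Cyp3a41a and Cyp3a41b were left out.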

Additional observations from a re-analysis of the deposited data

Results flagged for a closer look

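In each of 90 groups of 4 arrays (10 member probe sets in 9 groups), the gap from the highest or lowest array to its nearest neighbour was divided by the group's range and set against Dixon's 95% critical value. Chance gives about 1 in 20 groups, or 4.5 here, and 8 were found. CBA replicate 4 and Ct replicate 3, the arrays with high 3′ to 5′ ratios, account for 5 of them. Cyp3a13 read 3016 on CBA replicate 4 against 1367 to 1527 on the other CBA arrays (ratio 0.861). Cyp3a25 read 52993 there against 21146 to 22844 (0.916), and Cyp2b10 on 1451787_at read 44.6 against 138 to 154 (0.904). On Ct replicate 3, Cyp2b9 read 3174 against 11081 to 13724 (0.854) and Cyp3a25 read 11468 against 24201 to 27657 (0.848).

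The other 3 were on arrays with usual 3′ to 5′ ratios. Cyp2b13 read 258 on Pax3 replicate 3 against 5861 to 8262 on the other Pax3 arrays (0.899). Cyp3a11 read 44202.5 on Pax3 replicate 4 against 40505 to 40705 (0.944), a group whose values otherwise lay very close together. Cyp2b10 on 1425645_s_at read 179.6 on Cd-WT replicate 1, the array with low Xist, against 119 to 125 (0.883).

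By the limma F test of the 5 line effects, the difference of mutant from control was unequal between lines for Cyp3a13 (adjusted p = 0.000371), where it was 2.18 in Ct and -0.13 to 0.53 in the other 4 lines. The same test gave an adjusted p of 0.0495 for Cyp2b10 on 1425645_s_at, where the line effects ran from -0.59 in Apob to 0.82 in Pax3, and both of those share the B6 arrays.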

How the results depend on the processing

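Of the 11 called member differences, each under 17 alternatives (187 in all), 152 kept the call, 35 lost it and 0 reversed. Those of Cyp3a13 in its 5 comparisons and of Cyp3a16 for Cd-WT minus Lp-WT kept the call under every alternative run, as did the F tests over wild type groups of Cyp3a13, Cyp3a16 and Cyp3a44. Of 99 uncalled differences, 9 were called under at least 1 alternative. For Apob minus B6 the count of called members (1) was 0 with an offset of 8, an offset of 64, no filter or 1 probe set per gene, and 0 to 2 with 1 array left out. For Cd-WT minus B6 the count (2) was 4 with quantile normalization, 1 with an offset of 8 or no filter, 5 without both doubtful arrays or with the compared groups alone, and 1 to 2 with 1 array left out. For Lp-WT minus CBA (2) it was 1 with an offset of 8 or no filter, and 1 to 3 with 1 array left out. For Cd-WT minus CBA (1) it was 0 with median centring and 2 with an offset of 64. With the compared groups alone, CBA minus B6 (1) had 2 and Lp-WT minus B6 (0) had 1. The F test over line effects (2) had 1 with quantile normalization, median centring, an offset of 64 or no filter, and 1 to 3 with 1 array left out. With 1 array left out, Cd-WT minus Lp-WT (3) had 2 to 3 and the F test over wild type groups (4) had 3 to 5. The causes were not tested. With a replicate block no member count moved by over 1.5 times, and the calls over all probe sets went from 215 to 169 for Apob minus B6 and from 1221 to 1130 for Ct minus CBA. Without both doubtful arrays those calls were 774 and 453. Signals near background limit Cyp2b10 in all groups and Cyp3a16 in Apob, Pax3, Lp-WT and Lp-Het livers.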
